A study of Mus musculus with 8 samples.

Results

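The genes described are Il2ra, Il2rb, Il4ra, Il7r, Il15, Il15ra, Il21r, Stat5a and Stat5b, 9 of the 18193 genes measured, and were taken by name as genes of the IL-2, IL-4, IL-7 and IL-15 receptor axis (IL, interleukin). They had 17 of the 34945 probe sets that the platform annotation pairs with a single gene. Expression was measured in CD11b+ cells, that is, cells carrying an integrin subunit found on monocytes, macrophages and neutrophils, on 8 single-channel arrays. The 4 groups, of 2 arrays each, were NOD.Idd3 cells with peptidoglycan (PGN, a bacterial cell wall polymer), unstimulated NOD.Idd3 cells, NOD cells with PGN and unstimulated NOD cells. PGN was given at 5 µg/ml, unstimulated cells received medium alone, and all cells were incubated for 4 h at 37 °C before RNA extraction. NOD mice develop autoimmune diabetes, and NOD.Idd3 is a congenic NOD strain whose Idd3 region, which holds Il2 and Il21, comes from a diabetes-resistant mouse strain. The labels call the arrays of a group biological replicates but give no age, tissue of origin or number of animals per array, so p-values here reflect the spread between these arrays, which may be partly technical.

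The receptors of IL-2, IL-4, IL-7, IL-15 and IL-21 share the common gamma chain and signal through JAK1 and JAK3 to STAT proteins. IL-2 and IL-15 also share the beta chain encoded by Il2rb, and each has its own alpha chain, encoded by Il2ra (CD25) and Il15ra. IL-15 is made by myeloid cells and is presented to neighbouring lymphocytes on IL-15 receptor alpha. Il4ra and Il7r encode the specific chains of the IL-4 and IL-7 receptors and Il21r that of the IL-21 receptor. STAT5A and STAT5B, which are closely related, are activated by IL-2, IL-7 and IL-15, and STAT6 by IL-4.

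With PGN, 5 of the 9 genes rose over both strains together: Il2ra, Il4ra, Il15ra, Stat5a and Il7r. None fell. Passing meant an adjusted p under 0.05 (Benjamini-Hochberg over all genes, limma), which was reached by 4.86% of all genes in the upward direction, and the same 5 genes were those whose 4 PGN arrays all lay above the 4 unstimulated arrays (8.6% of all genes). The median log2 change of the 9 genes was 1.16, against 0.05 over all genes. The 9 genes were chosen with earlier results of these data known, so their counts and median beside all genes are a description. With the replicate number as a term in the fit (the replicate block), Il21r and Il15 passed as well, which made 7, where 7.21% of all genes passed upward. Il2rb and Stat5b passed in neither fit. Within NOD.Idd3, 3 of the 9 genes rose (Il2ra, Il4ra and Il7r; 1.89% of all genes), and 5 with the block (3.67%). Within NOD, 4 rose (Il2ra, Il15ra, Stat5a and Il4ra; 1.81% of all genes), and 6 with the block (3.83%). These counts rest on single arrays: leaving out any 1 of the 4 NOD.Idd3 arrays left 0 or 1 in NOD.Idd3, and leaving out NOD with PGN replicate 1, NOD with PGN replicate 2 or unstimulated NOD replicate 2 left 1, 0 and 0 in NOD. Levels below are log2 intensities of the probe set with the highest mean of its gene, with replicate 1 before replicate 2, and changes are log2 differences with the standard error of the fit.

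Promoters in the RefSeq table (build GRCm38.p6, 250 bases before to 50 after a transcript start) were found for 7 of the 9 genes, in 10 windows. Those of Il2ra, Il4ra, Il7r and Stat5a are shown as the start regions of genes that rose, and that of Stat5b for contrast with its paralog. Stat5a and Stat5b had 2 windows each, of which 1 is shown. Capitals mark matches, on either strand, to the 10-letter NF-kB consensus, to the STAT5 motif TTCNNNGAA, to the STAT6 motif (the same outer letters with 1 more base between them) or to the AP-1 motif TGANTCA. The windows are chr2:11642542-11642841 (plus strand) for Il2ra, chr7:125552021-125552320 (plus strand) for Il4ra, chr15:9529827-9530126 (minus strand) for Il7r, chr11:100860234-100860533 (plus strand) for Stat5a and chr11:100850532-100850831 (minus strand) for Stat5b.
Il2ra: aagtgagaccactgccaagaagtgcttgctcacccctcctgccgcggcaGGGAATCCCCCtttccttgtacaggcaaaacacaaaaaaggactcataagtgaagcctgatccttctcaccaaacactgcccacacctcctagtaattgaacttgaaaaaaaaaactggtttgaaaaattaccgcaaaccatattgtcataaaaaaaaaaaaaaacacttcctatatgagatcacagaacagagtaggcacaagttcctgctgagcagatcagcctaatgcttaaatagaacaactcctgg
Il4ra: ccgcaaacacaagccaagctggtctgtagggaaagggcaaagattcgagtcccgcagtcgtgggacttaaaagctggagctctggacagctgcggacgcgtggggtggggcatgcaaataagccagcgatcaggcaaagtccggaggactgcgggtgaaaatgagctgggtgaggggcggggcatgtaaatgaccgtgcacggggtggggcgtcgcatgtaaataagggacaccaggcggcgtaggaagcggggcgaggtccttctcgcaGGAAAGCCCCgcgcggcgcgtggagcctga
Il7r: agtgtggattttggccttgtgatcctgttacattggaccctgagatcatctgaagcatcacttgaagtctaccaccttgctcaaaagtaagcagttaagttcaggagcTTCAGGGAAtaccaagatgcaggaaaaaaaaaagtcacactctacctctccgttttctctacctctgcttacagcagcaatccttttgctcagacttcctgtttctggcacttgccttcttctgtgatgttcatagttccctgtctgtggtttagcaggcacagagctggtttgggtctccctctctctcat
Stat5a: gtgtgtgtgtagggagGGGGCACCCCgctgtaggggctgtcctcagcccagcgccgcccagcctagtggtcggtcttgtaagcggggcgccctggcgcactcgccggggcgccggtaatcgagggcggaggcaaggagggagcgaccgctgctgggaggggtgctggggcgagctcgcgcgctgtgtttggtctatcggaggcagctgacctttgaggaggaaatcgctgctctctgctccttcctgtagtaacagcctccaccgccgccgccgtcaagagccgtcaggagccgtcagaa
Stat5b: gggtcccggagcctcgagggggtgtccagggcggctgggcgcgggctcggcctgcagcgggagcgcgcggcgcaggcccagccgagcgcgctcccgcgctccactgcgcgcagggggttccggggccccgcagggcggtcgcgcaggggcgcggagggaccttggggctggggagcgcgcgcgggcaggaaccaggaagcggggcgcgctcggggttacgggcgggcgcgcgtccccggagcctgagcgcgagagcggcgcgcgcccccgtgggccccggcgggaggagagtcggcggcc

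The NF-kB consensus matched in 3 of the 10 windows, 1 each of Il2ra, Stat5a and Il4ra. In Il2ra it lay from -201 to -192 relative to the start, with an overlapping match on the other strand from -200 to -191. It lay from -234 to -225 in 1 of the 2 Stat5a windows and, downstream of the start, from 21 to 30 in Il4ra. Of the 32817 promoter windows in the table, 8.46% held a match to this consensus. The STAT5 motif was found in Il7r only, from -142 to -134 (8.29% of all windows), and the AP-1 motif in 1 of 2 windows of Il15ra, from -30 to -24 (7.81%). No window of the 10 matched the STAT6 motif, which 6.94% of all windows did. These are matches of letters, and no binding was measured.

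Il2ra, the alpha chain that raises the affinity of the IL-2 receptor, had the highest change of the 9 genes by these probe sets. It stood at 7.42 and 8.26 in NOD.Idd3 cells with PGN and at 7.73 and 9.39 in NOD cells with PGN, against 5.59 and 4.64 in unstimulated NOD.Idd3 cells and 5.79 and 6.02 in unstimulated NOD cells. Every PGN array was above every unstimulated array. The unstimulated arrays lay around the array medians of all probe sets, with replicate 2 of NOD.Idd3 lowest. The change averaged over strains was 2.69 ± 0.38 (4 arrays per condition, limma adjusted p = 0.00307), a 6.46-fold difference. It was 2.73 ± 0.54 in NOD.Idd3 (adjusted p = 0.0326) and 2.65 ± 0.54 in NOD (adjusted p = 0.0321). The size differed between replicate numbers, at 1.83 and 1.94 in replicate 1 and 3.62 and 3.37 in replicate 2 of NOD.Idd3 and NOD. A second, dimmer probe set of Il2ra changed by 1.50 ± 0.19.

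**Figure D1:**
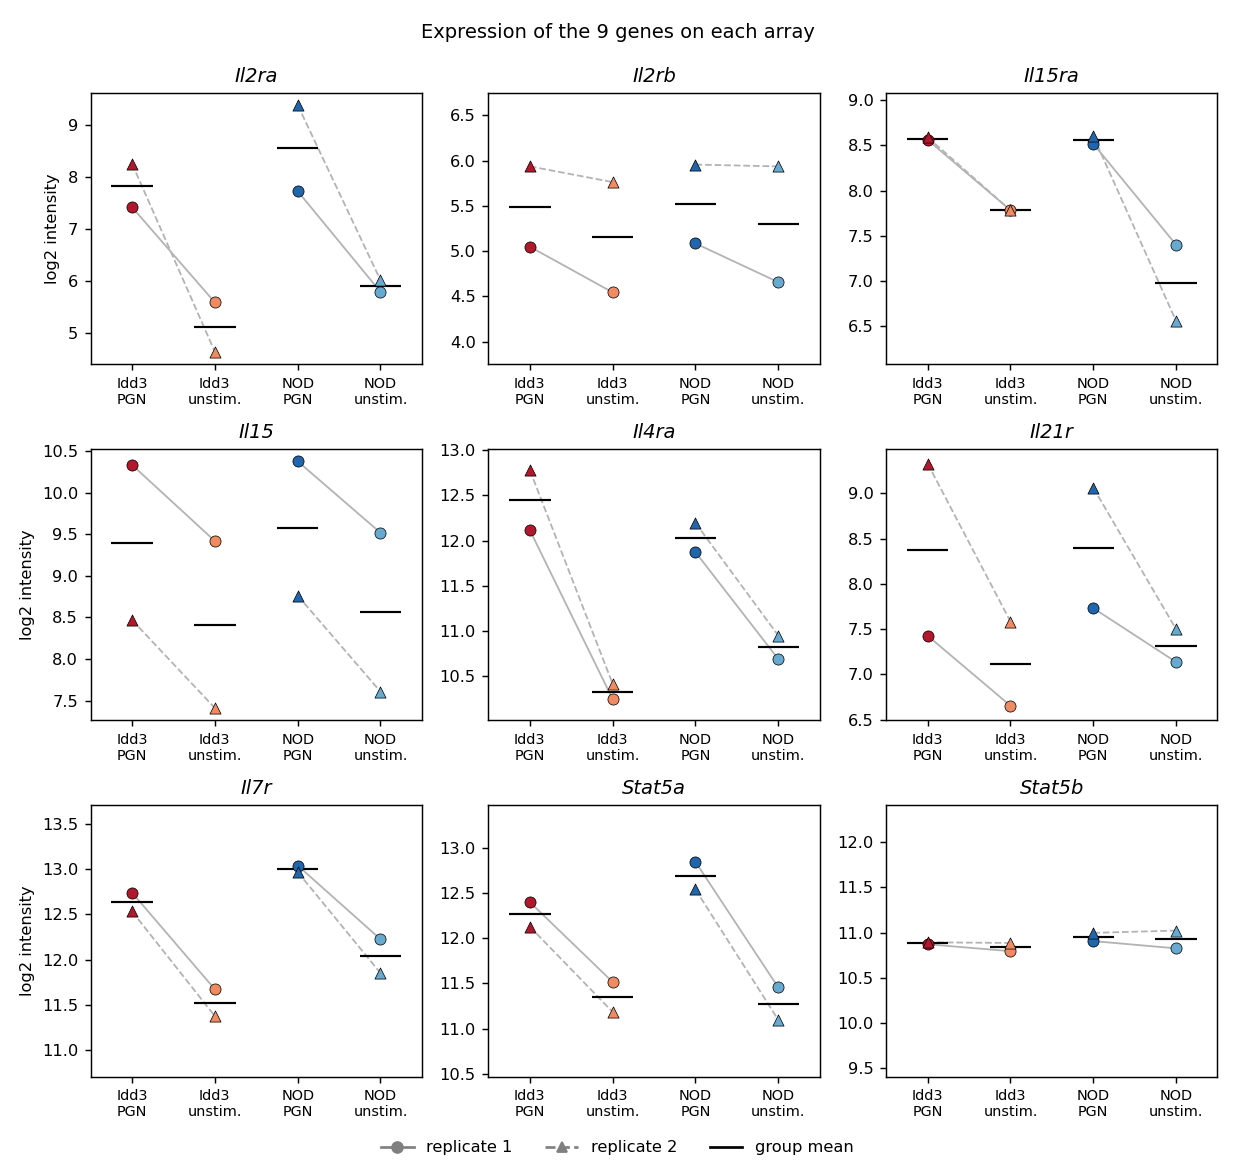
Log2 intensity of each of the 9 genes on each of the 8 arrays (y axis, spanning at least 3 log2 units in every panel) in the 4 groups (x axis). Circles are replicate 1, triangles replicate 2, black bars group means, and grey lines join arrays of the same strain and replicate number. Il2ra, Il4ra, Il15ra, Il7r and Stat5a are higher on all PGN arrays, and Stat5b is flat. Il15 and Il2rb are split by replicate number, and Il21r is higher in replicate 2 within each group.

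Il2rb, the signalling beta chain of the IL-2 and IL-15 receptors, was below the array medians in replicate 1 and above them in replicate 2. Its level was 5.05 and 5.94 in NOD.Idd3 cells with PGN and 5.08 and 5.96 in NOD cells with PGN, against 4.54 and 5.76 in unstimulated NOD.Idd3 cells and 4.66 and 5.94 in unstimulated NOD cells. The groups overlapped, and within each group replicate 2 was higher, by 0.87 to 1.28. The averaged change was 0.28 ± 0.39 (adjusted p = 0.709, and 0.223 with the replicate block), with a 95% interval of -0.60 to 1.17. The second probe set lay between 3.57 and 4.94, near the arrays' 25th percentiles (3.84 to 4.05). The beta chain is typical of NK and T cells: the summed intensity of 7 NK cell markers was 967 to 2439 on PGN arrays and 1112 to 2285 on unstimulated arrays, and that of 11 T cell markers was 1971 to 2800 and 3980 to 6881. The T cell sum was mostly Cd3d (59.0% to 74.5% on PGN arrays and 78.4% to 85.7% on unstimulated arrays), and without it was 714 to 918 and 845 to 1307. Of the NK cell markers Prf1 passed, at -0.52 ± 0.14, and with the replicate block Klrd1 at -1.66 ± 0.34 and Gzma at 1.23 ± 0.17 passed too. In a bulk sample, fewer cells of a type and less RNA per cell cannot be told apart.

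Il15ra, which presents IL-15 to other cells, rose by 1.19 ± 0.19 over both strains (adjusted p = 0.00598). Levels were 8.56 and 8.59 in NOD.Idd3 cells with PGN and 8.52 and 8.60 in NOD cells with PGN, against 7.78 and 7.78 in unstimulated NOD.Idd3 cells and 7.40 and 6.56 in unstimulated NOD cells. The 4 PGN arrays lay between 8.52 and 8.60, while the unstimulated NOD arrays were the lowest. In NOD the change was 1.58 ± 0.28 and passed (adjusted p = 0.0181). In NOD.Idd3 it was 0.79 ± 0.28 and missed the threshold (adjusted p = 0.194, with the block 0.124). The second probe set gave 0.91 ± 0.21 over both strains (adjusted p = 0.0237 in a fit of all probe sets).

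Il15, the cytokine itself, differed more between replicate numbers than between conditions. It stood at 10.33 and 8.47 in NOD.Idd3 cells with PGN and at 10.38 and 8.76 in NOD cells with PGN, against 9.42 and 7.41 in unstimulated NOD.Idd3 cells and 9.52 and 7.61 in unstimulated NOD cells. Replicate 1 was higher by 1.61 to 2.01 in each of the 4 groups, with a mean of 1.85, and 0.104% of all genes had a mean difference between replicate numbers at least as large. Within a replicate number the PGN arrays were higher each time, by 0.92 and 1.06 in NOD.Idd3 and 0.86 and 1.16 in NOD. A gain in all 4 such pairs was seen in 20.3% of all genes. The averaged change was 1.00 ± 0.64 without the block (adjusted p = 0.384) and 1.00 ± 0.14 with it (adjusted p = 0.00201). With the block Il15 also passed within NOD.Idd3 (adjusted p = 0.0226) and within NOD (adjusted p = 0.0173). Array names of replicate 1 carry a shared date in the labels, and what else differed between the numbers is not given there, so the cause of the Il15 difference was not tested.

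**Figure D2:**
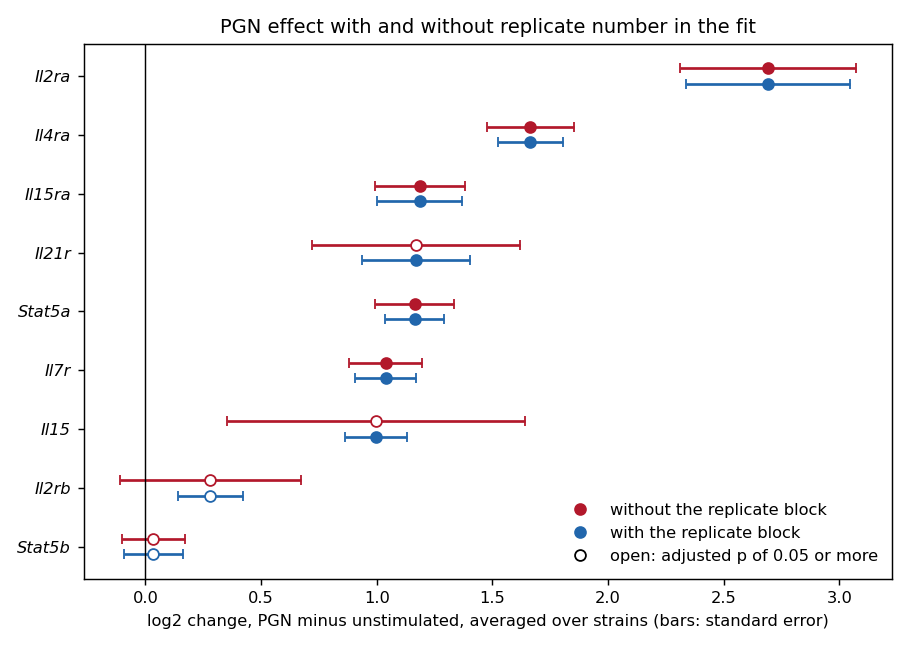
Log2 change with PGN averaged over strains (x axis) for the 9 genes (y axis), from fits without (red) and with (blue) the replicate block. Points are estimates, bars are standard errors, and open points did not pass. Il15 and Il21r, at 1.00 and 1.17, pass only with the block, which leaves the estimates as they are and narrows the errors.

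Il4ra, the IL-4 receptor alpha chain, which also serves the IL-13 receptor, rose by 1.66 ± 0.19 over both strains (adjusted p = 0.00118, 3.17-fold). It stood at 12.11 and 12.78 in NOD.Idd3 cells with PGN and at 11.87 and 12.20 in NOD cells with PGN, against 10.25 and 10.42 in unstimulated NOD.Idd3 cells and 10.69 and 10.95 in unstimulated NOD cells. By this probe set NOD.Idd3 was lower than NOD unstimulated and higher with PGN on the arrays of both replicate numbers. Neither strain difference passed (unadjusted p = 0.101 and 0.158 in limma). The dimmest probe set had the opposite directions, at 0.06 and 0.22 unstimulated and -0.20 and -0.26 with PGN, and the remaining 1 the same directions. The change was 2.11 ± 0.27 in NOD.Idd3 (adjusted p = 0.00750) and 1.21 ± 0.27 in NOD (adjusted p = 0.0437). The other probe sets gave 2.09 ± 0.17 and 1.09 ± 0.16 over both strains.

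Il21r, the receptor chain for IL-21, lies next to Il4ra on chromosome 7. Its level was 7.43 and 9.33 in NOD.Idd3 cells with PGN and 7.73 and 9.06 in NOD cells with PGN, against 6.65 and 7.58 in unstimulated NOD.Idd3 cells and 7.14 and 7.50 in unstimulated NOD cells. Of the 4 PGN arrays, only replicate 1 of NOD.Idd3 lay within the unstimulated range, and the others were above it. The change averaged 1.17 ± 0.45 (adjusted p = 0.145, and 0.0111 with the replicate block), with 0.77 and 0.60 in replicate 1 and 1.74 and 1.56 in replicate 2 of NOD.Idd3 and NOD. Leaving out 1 array at a time, the averaged change of Il21r without the block ranged from 0.69 to 1.64. It was highest without replicate 1 of NOD.Idd3 with PGN, the array within the unstimulated range. IL-21 receptor is abundant on B cells, whose 8 measured markers summed to 2037 to 8376 on PGN arrays and 2053 to 8017 on unstimulated arrays. None of the 8 passed, and with the replicate block 3 fell, Cd79b, Cd79a and Cd22.

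Il7r, the IL-7 receptor alpha chain, which is also part of the TSLP receptor, was bright in all groups. It stood at 12.74 and 12.53 in NOD.Idd3 cells with PGN and at 13.04 and 12.97 in NOD cells with PGN, against 11.67 and 11.37 in unstimulated NOD.Idd3 cells and 12.22 and 11.85 in unstimulated NOD cells. Every PGN array exceeded every unstimulated array. The averaged change was 1.04 ± 0.16 (adjusted p = 0.00424), and the second, dimmer probe set gave 1.64 ± 0.27. Il7r passed in NOD.Idd3 at 1.11 ± 0.22 (adjusted p = 0.0355). In NOD its difference was 0.97 ± 0.22 (adjusted p = 0.0525), which passed once the block was in the fit (adjusted p = 0.0182). Il7r is best known from lymphocytes, and of the 11 T cell markers 1 fell, Cd3d at -1.48 ± 0.21. With the replicate block Cd3g (-0.92 ± 0.21) and Thy1 (0.75 ± 0.20) passed as well, and the median over the 11 was -0.23.

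The genes flanking Il7r on chromosome 15, Capsl and Spef2, also passed with PGN. Capsl was at 4.73 and 5.07 in NOD.Idd3 and 5.34 and 5.88 in NOD cells with PGN, against 3.82 and 3.87 in unstimulated NOD.Idd3 and 4.14 and 4.43 in unstimulated NOD cells (1.19 ± 0.18, adjusted p = 0.00378). Spef2 was at 5.00 and 5.74 in NOD.Idd3 and 5.08 and 4.90 in NOD cells with PGN, against 3.33 and 3.49 in unstimulated NOD.Idd3 and 3.76 and 3.28 in unstimulated NOD cells (1.72 ± 0.20, adjusted p = 0.00134). Unstimulated levels of both genes were near the 25th percentiles of the arrays. Among measured neighbours of the other members, Stat3 beside Stat5a passed too. Not passing were Tmprss6 (-0.12) and C1qtnf6 (-0.41) beside Il2rb, Fbh1 (-0.13) beside Il15ra, Gtf3c1 (-0.40) beside Il21r and Ghdc (-0.08) beside Stat5b. Upward, 4.86% of all genes passed.

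Stat5a, a transcription factor downstream of IL-2, IL-7, IL-15 and also GM-CSF, rose by 1.16 ± 0.17 (adjusted p = 0.00350). It stood at 12.40 and 12.12 in NOD.Idd3 cells with PGN and at 12.84 and 12.54 in NOD cells with PGN, against 11.51 and 11.18 in unstimulated NOD.Idd3 cells and 11.45 and 11.10 in unstimulated NOD cells. The PGN arrays of both strains lay above all unstimulated arrays. The difference was 0.91 ± 0.24 in NOD.Idd3 (adjusted p = 0.0902, with the block 0.0231), and the change was 1.41 ± 0.24 in NOD (adjusted p = 0.0164). The second probe set of Stat5a had a larger change, 2.85 ± 0.19 (adjusted p = 0.000136 in a fit of all probe sets), from unstimulated levels of 5.36 to 5.90.

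Stat5b, the neighbour of Stat5a on chromosome 11, stayed within a narrow range. It stood at 10.87 and 10.89 in NOD.Idd3 cells with PGN and at 10.91 and 11.00 in NOD cells with PGN, against 10.79 and 10.89 in unstimulated NOD.Idd3 cells and 10.83 and 11.02 in unstimulated NOD cells. The change was 0.03 ± 0.14 (adjusted p = 0.904), with a 95% interval of -0.28 to 0.35, whereas the interval for Stat5a was 0.78 to 1.55. The second Stat5b probe set gave 0.33 ± 0.21 (adjusted p = 0.374 in a fit of all probe sets). Stat3, on the other side of Stat5a and activated by IL-21 among others, changed by 0.76 ± 0.16 (adjusted p = 0.0160).

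**Figure D3:**
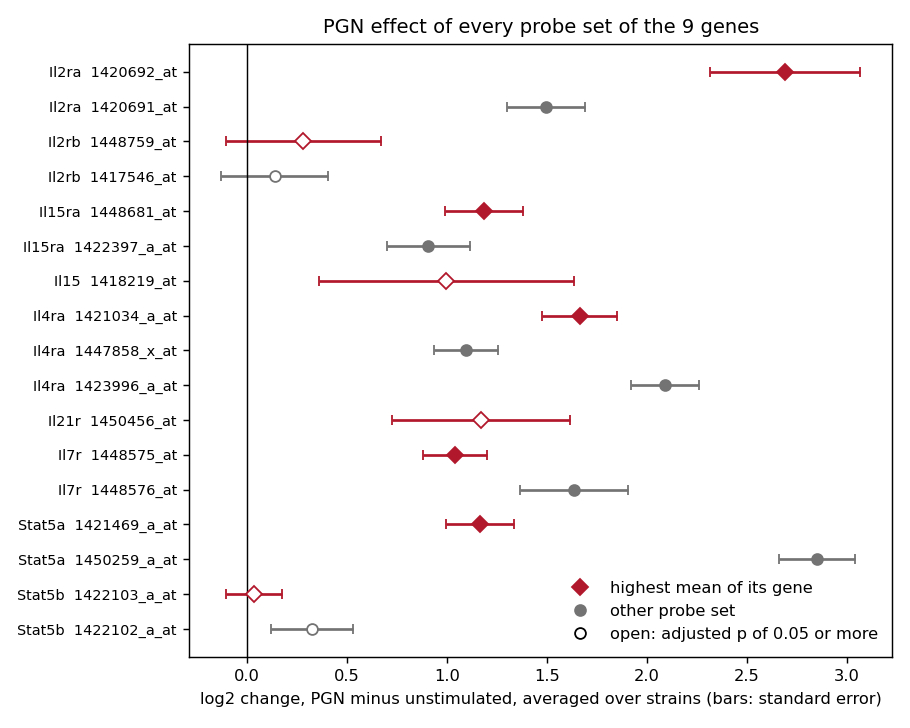
Log2 change with PGN averaged over strains (x axis) for each of the 17 probe sets (y axis), from a fit of all probe sets. Diamonds mark the probe set with the highest mean of its gene, bars are standard errors, and open symbols did not pass. Every probe set of Il2ra, Il15ra, Il4ra, Il7r and Stat5a passes, while the size differs within a gene, most for Stat5a at 1.16 and 2.85.

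Between strains, none of the 9 genes passed for a difference in the PGN response (NOD.Idd3 minus NOD), and limma called 0% of all genes (0 of 18193, with 1.73% at an unadjusted p under 0.05). With the block it was also 0. Il4ra had the smallest p of the 9 genes, with a difference of 0.90 ± 0.38 (unadjusted p = 0.0415 and adjusted p = 1.00 in limma, 95% interval 0.04 to 1.76). Its replicate pairs gave 1.87 and 2.36 in NOD.Idd3 and 1.18 and 1.24 in NOD. Pairs that do not overlap between strains, as here, were found in 35.8% of all genes. The probe sets of Il4ra differed in direction, since the dimmest gave -0.38 ± 0.32 and the remaining 1 gave 0.77 ± 0.34. The difference was -0.79 ± 0.39 for Il15ra, with -0.46 ± 0.41 for its other probe set. It was -0.50 ± 0.34 for Stat5a, whose other probe set had the opposite sign, 0.25 ± 0.38. For Il2ra it was 0.07 ± 0.76, with a 95% interval of -1.65 to 1.80, so that differences of several-fold could not be detected for this gene.

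**Figure D4:**
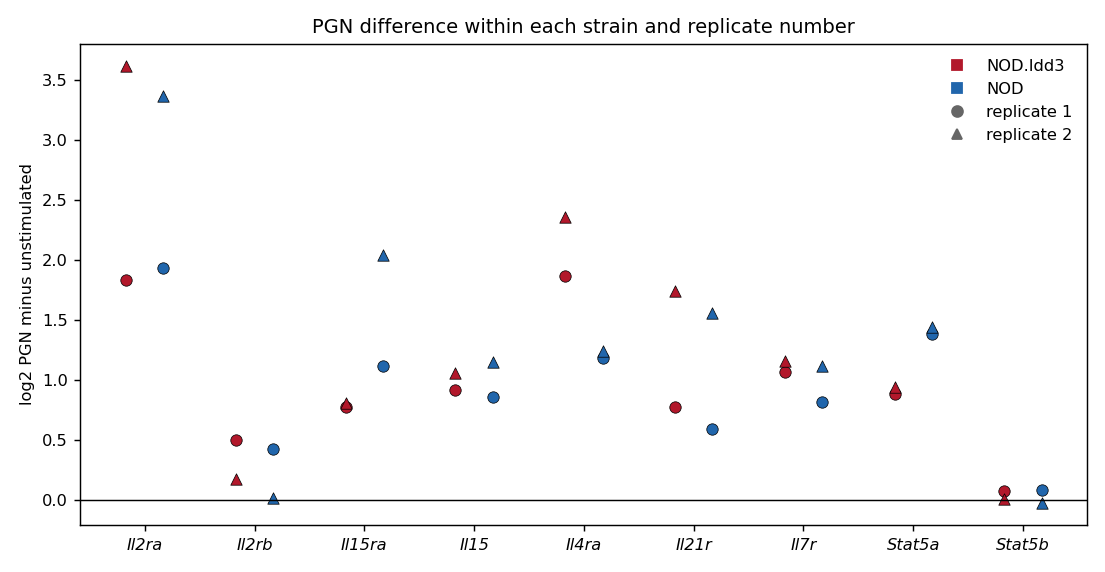
Log2 difference between the PGN and the unstimulated array of the same strain and replicate number (y axis) for the 9 genes (x axis), with NOD.Idd3 in red and NOD in blue, circles for replicate 1 and triangles for replicate 2. Differences of Il4ra are higher in NOD.Idd3 (1.87 and 2.36) than in NOD (1.18 and 1.24), those of Stat5a and Il15ra are lower, and those of Il2ra and Il21r follow the replicate number. Pairs without overlap between strains were found in 35.8% of all genes. The dimmest probe set of Il4ra and the second of Stat5a, not drawn here, had the opposite direction.

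Averaged over both conditions, none of the 9 genes passed for the strain difference either (0% of all genes called by limma, 6.46% at an unadjusted p under 0.05, and 0.148% called with the replicate block, none of them among the 9). Il7r was lower in NOD.Idd3 by 0.44 ± 0.16 on the log2 scale (NOD.Idd3 minus NOD -0.44, unadjusted p = 0.0220, adjusted p = 0.733 in limma), and all 4 pairs of the same condition and replicate number had this direction, from -0.55 to -0.30. Its other probe set gave -0.25 ± 0.27, negative in 3 of 4 pairs. Il2ra stood at -0.76 ± 0.38 (adjusted p = 0.802), also negative in all 4 pairs, from -1.38 to -0.20, whereas its other probe set gave 0.08 ± 0.19. All 4 pairs were negative too for Il15, Il2rb and Stat5b, whose averages were only -0.16, -0.09 and -0.08. Pairs of Il4ra, Il15ra, Il21r and Stat5a had both signs. The share of all genes with 4 pairs in 1 direction was not counted for the strains, so no strain effect is read from these directions. Unstimulated, Il15ra differed by 0.80 ± 0.28 (unadjusted p = 0.0177, adjusted p = 1.00 in limma), with 0.38 and 1.22 in the replicate pairs, and with PGN by 0.01 ± 0.28. The other probe set of Il15ra gave 0.90 ± 0.29 unstimulated and 0.44 ± 0.29 with PGN, positive in all 4 pairs, and passed in neither. In the unstimulated and the PGN strain comparisons limma called 0% of all genes each (3.36% and 5.41% at an unadjusted p under 0.05). Summed B cell markers were 2037 to 3082 on NOD.Idd3 arrays and 4953 to 8376 on NOD arrays, and the Gapdh 3' minus 5' control difference, a measure of RNA or labelling quality, was 0.72 to 0.80 and 0.88 to 1.16. The same difference for beta-actin overlapped between strains, at 0.22 to 0.46 on NOD.Idd3 arrays and 0.43 to 0.58 on NOD arrays. The part of the B cell markers and of these controls in the strain values was not tested.

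The wider family comprised 39 genes of ligands, other receptor chains, kinases and other STATs, and known targets of STAT5 and STAT6, of which 37 were measured. For the averaged PGN effect 7 rose and 2 fell, against 4.86% and 6.4% of all genes, and the median was 0.25 (0.05 over all genes). With the replicate block 11 rose and 3 fell, against 7.21% and 9.73% of all genes. None of the 7 ligand genes passed without the block (median -0.01). Il2 lay between 3.32 and 3.71 on all arrays, below the 25th percentiles, and Tslp had the smallest p with 1.08 ± 0.35 (adjusted p = 0.0874, and 0.0161 with the block). Of 4 other receptor chains none passed (median 0.16), and Crlf2, which pairs with the Il7r product to bind TSLP, had a difference of 0.32 ± 0.20. Among 4 kinases and STATs Stat3 passed, and with the block Jak3 too (0.95 ± 0.16, adjusted p = 0.00529).

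Genes known as STAT5 targets held most of these calls: 6 of 12 rose and 1 fell (4.86% and 6.4% of all genes), with a median of 1.31. With the block 8 rose and 1 fell (7.21% and 9.73% of all genes). The list was chosen with earlier results of these data known, so these counts are a description, and STAT5 activity was not tested. Cish, a feedback inhibitor of STAT5 signalling, stood at 8.29 and 8.86 in NOD.Idd3 and 7.59 and 9.48 in NOD cells with PGN, against 6.40 and 5.82 in unstimulated NOD.Idd3 and 5.45 and 5.93 in unstimulated NOD cells (2.66 ± 0.38, adjusted p = 0.00330). Socs3, an inhibitor of cytokine receptor signalling, rose by 2.42 ± 0.29, and Bcl2l1, which encodes the survival protein BCL-XL, by 2.19 ± 0.14. Bcl2, a related survival gene and named after its value was seen, fell by 1.14 ± 0.28. Most of these genes also respond to other pathways. Of 10 genes known as IL-4 and STAT6 targets in macrophages none rose and 1 fell (median -0.03), the lectin gene Clec10a at -1.94 ± 0.20 (adjusted p = 0.000813). With the block the chemokine gene Ccl24 passed too (-1.97 ± 0.32, adjusted p = 0.00468).

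**Figure D5:**
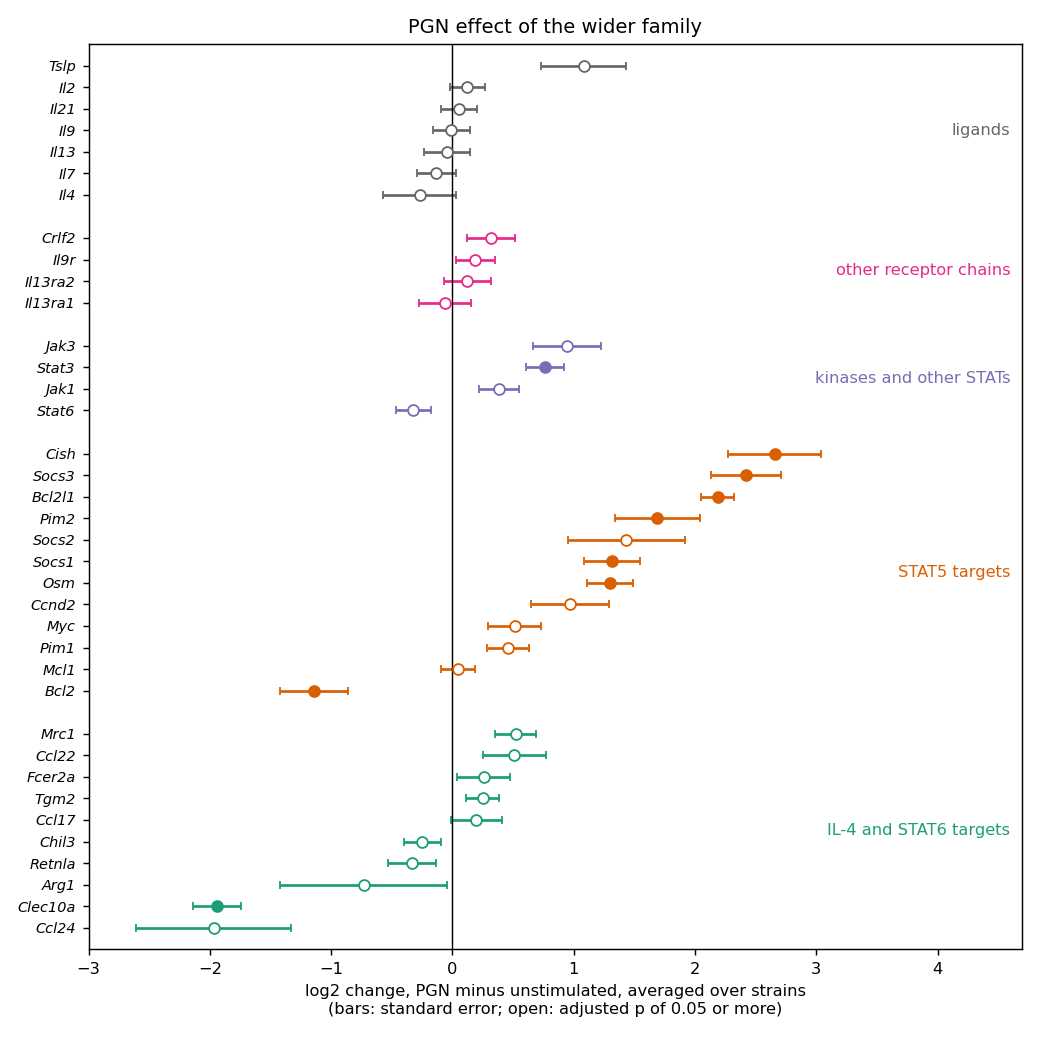
Log2 change with PGN averaged over strains (x axis) for the 37 measured genes of the wider family (y axis), grouped by role. Points are estimates, bars standard errors, and open points did not pass. Filled points to the right are Stat3 and 6 STAT5 targets, led by Cish at 2.66, and those to the left are Bcl2 and Clec10a.

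The genes whose levels followed a member most closely over the 8 arrays, among 18192 candidates, were found by Pearson's r as a description, since the arrays share treatment and replicate number. For Il2ra these were Mllt6 (r = 0.99), Chst11 (0.98) and Bahd1 (0.98). For Il4ra they were Tnip2, Rab3ip (both 1.00) and Pik3r5 (0.99). For Il15 they were Adh7 (1.00), Mmp12 (0.98) and Gstm4 (0.98). For the averaged PGN effect Chst11, Tnip2, Rab3ip and Pik3r5 passed, and Mllt6, Bahd1, Adh7, Mmp12 and Gstm4 did not.

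Of the markers for the labelled cells, Itgam, which encodes CD11b, lay between 7.87 and 9.02, and the remaining 11 measured myeloid markers between 11.04 and 15.17. None of the 12 passed with PGN, and with the replicate block 2 fell, Csf3r (-0.82 ± 0.17) and Itgam (-0.48 ± 0.14). Dendritic cell markers summed to 4172 to 7397 on PGN arrays and 1386 to 2958 on unstimulated arrays, of which Ccr7, the 1 of 5 that passed, made up 86.7% to 92.5% and 64.6% to 75.3%. Without Ccr7 the sums overlapped, at 434 to 938 and 491 to 729, and the median change of the 5 was 0.06. Regulatory T cell markers (180 to 208 and 123 to 194) and mast cell and basophil markers (160 to 209 and 120 to 150) summed to far less, with none passing. Array values have no zero, so absence of a cell type cannot be read from them, and the part of these markers in the changes of the 9 genes was not tested.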

How the data were processed

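Total RNA was biotin-labelled and hybridised to 8 arrays, per the labels' protocols. The deposited table holds linear-scale intensities, 1 for each probe set on each array, and the submitters' processing notes name RMA. No source used here gives its version, the chip definition or a genome build. The log2 of each of 45101 values per array was taken, with array medians of 5.42 to 5.50. Control probe sets (64), those with no symbol (9160) and those with several (932) were left out. Names came from the platform annotation, updated through RefSeq (GRCm38.p6, 34741 probe sets matched), and each gene was represented by its brightest probe set on average. limma 3.58.1 (R 4.3.3) tested contrasts of the 4 group means (4 residual and 4.69 prior degrees of freedom), with Benjamini-Hochberg adjustment over 18193 genes, and checked on simulated data. The number of arrays limits the precision.

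Replicate numbers were taken as pairing the arrays for the pair differences and the replicate block, while the main fit had no such term. Replicate 1 array names share a date. Differences between replicates 1 and 2 correlated across genes in all 6 pairs of groups (r of 0.17 to 0.42). A suffix in the array names, of unstated meaning, does not follow this pairing. It marks replicate 2 of NOD in each condition and replicate 1 of unstimulated NOD.Idd3, and no NOD.Idd3 array with PGN. The members and lists were chosen with earlier results of these data known. Named were all 9 members with every probe set and up to 3 genes per group of the wider family (the largest that passed, otherwise the smallest p). Also named were the 3 genes most like Il2ra, Il4ra and Il15, and the measured chromosomal neighbours. Some genes of the wider family and marker lists were not analysed here.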

Additional observations from a re-analysis of the deposited data

How the results depend on the processing

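The 5 genes called for the averaged PGN effect stayed between 5 and 7 under all alternatives run, and the strain differences and the difference in response stayed at 0. Members passing in NOD.Idd3, 3 as reported, came to 5 with the replicate block and to 0 to 3 when 1 array was left out. Those passing in NOD, 4 as reported, came to 2 with array weights, 2 with only the 4 arrays compared, and 0 to 4 when 1 array was left out. The wider family had 14 genes passing with the replicate block, against 9. Fits with only the 4 arrays compared, or with 1 array left out, used fewer arrays. Those with the replicate block or with array weights left no array out. The cause of these changes was not tested. The array-name suffix as a term, a variance trend, other probe set rules and other scalings were also tried. Il2rb had no value once genes under the 40th percentile were removed.

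Small differences changed sign. For the difference in PGN response Il2ra gave -0.28 with the mean of all probe sets, -0.12 with further quantile normalization and -0.00467 with arrays centred on their median, Il2rb gave -0.0197 with quantile normalization, and Stat5b -0.0629 with centring. The averaged strain difference of Il4ra was 0.0175 with the mean of all probe sets. The cause was not tested. Leaving out 1 array at a time, the difference in response ranged from -1.02 to 0.98 for Il15, -0.77 to 1.13 for Il21r, -0.76 to 0.90 for Il2ra, -0.52 to 0.75 for Il2rb, -0.0400 to 0.33 for Il7r and -0.0842 to 0.11 for Stat5b. The averaged strain difference ranged from -0.66 to 0.34 for Il15, -0.59 to 0.37 for Il21r, -0.41 to 0.23 for Il2rb and -0.20 to 0.13 for Il4ra. The PGN effect of Il2rb ranged from -0.27 to 0.95 in NOD.Idd3, -0.42 to 0.86 in NOD and -0.0383 to 0.60 averaged, that of Stat5b from -0.00369 to 0.0873, -0.0707 to 0.13 and -0.0144 to 0.0839, and that of Il15 in NOD.Idd3 from -0.0172 to 1.99. With 2 arrays per group, a lone array was assumed to vary like the other groups. Dim signal limits Il2rb.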
